A study of Mus musculus with 12 samples.

Results

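Small nucleolar RNA host genes (Snhg) are transcribed as long RNAs whose introns carry small nucleolar RNAs. The members are all genes whose symbol is Snhg followed by a number in the deposited expression tables. There were 16 of them among 27942 genes analysed, and the 10 described in full were chosen by their mean FPKM over the 6 libraries. FPKM is a count of fragments scaled to the gene length and to the library size. Because the mean FPKM selected the 10 genes, their levels and their order are a description, and no test is attached to them. The libraries came from C2C12 cells, an established mouse myoblast line that forms myotubes when serum is lowered. All cells were kept in 2% horse serum for 7 days, and RNA was then sequenced from 3 control libraries (untreated) and 3 libraries of cells given 25 µmol/L 4-octyl itaconate, called OI here, an ester of the metabolite itaconate that can enter cells. The series addresses how OI affects myogenic differentiation. The labels do not say whether the 3 libraries of a group came from separate cultures, so the p-values measure only how these libraries differed, and that spread may be technical. The 6 samples of a second set of the same groups were not analysed here.

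A host transcript is spliced, and the small RNA is then trimmed out of the excised intron. Box C/D small nucleolar RNAs guide the methylation of ribose in ribosomal RNA, and box H/ACA small nucleolar RNAs guide the conversion of uridine to pseudouridine. The spliced host RNA is often short-lived, since many hosts are degraded by nonsense-mediated decay when they meet ribosomes. Many hosts also begin at a run of pyrimidines, the terminal oligopyrimidine tract that is otherwise typical of ribosomal protein genes. Some host RNAs have been studied in their own right in dividing and tumour cells.

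The start sites are printed because this pyrimidine run is a sequence feature that the choice by expression did not use. RefSeq (GRCm38.p6) gave a start window for 9 of the 10 genes by symbol, and Snhg6 had none. Each sequence covers 40 bases on either side of the annotated start, 5′ to 3′ on the gene's strand, and the capitals mark the longest unbroken run of C and T within 20 bases of the start.
Snhg8 (chr3:123508297-123508376, minus strand): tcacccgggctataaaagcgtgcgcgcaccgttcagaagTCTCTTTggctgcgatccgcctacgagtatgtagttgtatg
Snhg18 (chr15:32244623-32244702, minus strand): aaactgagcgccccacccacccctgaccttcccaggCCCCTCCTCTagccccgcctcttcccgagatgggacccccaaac
Snhg12 (chr4:132308638-132308717, plus strand): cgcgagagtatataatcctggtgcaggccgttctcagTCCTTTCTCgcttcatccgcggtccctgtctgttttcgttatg
Snhg1 (chr19:8723447-8723526, plus strand): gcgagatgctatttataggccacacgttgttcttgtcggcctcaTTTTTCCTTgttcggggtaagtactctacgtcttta
Snhg5 (chr9:88522858-88522937, minus strand): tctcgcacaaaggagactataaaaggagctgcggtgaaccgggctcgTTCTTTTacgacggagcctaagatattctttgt
Snhg3 (chr4:132353647-132353726, minus strand): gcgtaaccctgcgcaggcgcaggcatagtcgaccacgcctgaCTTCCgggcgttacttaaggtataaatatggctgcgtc
Snhg15 (chr11:6528721-6528800, minus strand): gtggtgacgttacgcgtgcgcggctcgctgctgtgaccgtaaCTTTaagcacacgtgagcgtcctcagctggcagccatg
Snhg20 (chr11:117076743-117076822, plus strand): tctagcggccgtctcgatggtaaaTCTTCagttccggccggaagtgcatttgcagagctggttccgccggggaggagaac
Snhg17 (chr2:158361483-158361562, minus strand): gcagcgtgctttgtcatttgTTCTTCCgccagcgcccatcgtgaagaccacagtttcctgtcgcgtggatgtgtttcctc
The run in Snhg18 was 10 bases long, a length reached by 7.25% of 27025 RefSeq windows of the same kind. The runs in Snhg12 and Snhg1 were 9 bases long, which 10.6% of the windows reached. Those in Snhg8, Snhg5 and Snhg17 were 7 bases long, reached by 24.2% of the windows. Snhg3 and Snhg20 had runs of 5 bases and Snhg15 a run of 4, lengths that 57.7% and 78.7% of the windows reached. The median over the 9 hosts was 7 bases against 5 over all windows. The run covered the annotated start base in 3 hosts, Snhg8, Snhg18 and Snhg12. It began after the start in Snhg1, Snhg5, Snhg3 and Snhg15 and ended before it in Snhg20 and Snhg17. A long run at the RefSeq start was therefore not shared by all 9. For Snhg8, Snhg17 and Snhg5 the RefSeq start lay 68, 58 and 32 bases from the start in the deposited annotation. That deposited start was thus outside the 20 bases searched. For Snhg1 and Snhg20 the distance was 12 and 7 bases, and for Snhg18, Snhg12, Snhg3 and Snhg15 the starts were the same. The 300 bases around each start were searched on both strands. This found the letters TATAAA in 4 of the 9 hosts (Snhg8, Snhg1, Snhg5 and Snhg3), against 14.2% of all windows. In Snhg8 and Snhg5 the match lay before the start on the gene's own strand. In Snhg1 it lay before the start on the opposite strand, and in Snhg3 after the start. The letters TGACNNNGC were in 3 of the 9 (Snhg8, Snhg18 and Snhg17), against 12.5%. The E-box letters CAGCTG were in 1 host, Snhg15, against 16.1% of all windows, and CACGTG in the same 1 host, against 7.24%. These matches describe letters in the windows and are not evidence of binding.

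The small RNAs carried by the most abundant hosts with an entry in the tables are printed to show what those hosts encode. The sequences are from the GENCODE M21 annotation on GRCm38. Snora24, in Snhg8, and Snora16a, in Snhg12, are box H/ACA RNAs, and the capitals mark the ACA box near the 3′ end. The others are box C/D RNAs, and their capitals mark box C (TGATGA) and box D (CTGA).
Snora24 (chr3:123507937-123508066, minus strand): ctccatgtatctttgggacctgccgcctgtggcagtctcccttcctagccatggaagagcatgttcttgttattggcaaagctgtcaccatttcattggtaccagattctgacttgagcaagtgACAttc
Snora16a (chr4:132309464-132309600, plus strand): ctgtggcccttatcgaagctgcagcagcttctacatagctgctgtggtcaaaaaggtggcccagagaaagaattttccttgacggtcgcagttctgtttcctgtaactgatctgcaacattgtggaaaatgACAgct
Snord123 (chr15:32241853-32241923, minus strand): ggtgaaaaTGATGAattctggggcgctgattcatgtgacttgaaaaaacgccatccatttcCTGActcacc
Snord87 (chr1:9942463-9942549, minus strand): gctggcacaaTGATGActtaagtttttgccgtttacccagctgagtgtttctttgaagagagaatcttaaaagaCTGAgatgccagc
Snord50b (chr9:88521797-88521868, minus strand): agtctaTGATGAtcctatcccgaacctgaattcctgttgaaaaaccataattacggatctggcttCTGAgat
Snord50a (chr9:88521529-88521600, minus strand): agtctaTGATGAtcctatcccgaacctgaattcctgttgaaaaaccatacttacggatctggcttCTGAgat
Snord123 lies in Snhg18 and Snord87 in Snhg6. Snhg5 carries the near-identical pair Snord50a and Snord50b, which differed by 1 substitution over 72 bases, C50A, with the base of Snord50a given before the position counted from the 5′ end and that of Snord50b after it.

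Snhg8 had the highest level of the 16 members in all 6 libraries. Snhg11, whose start is the nearest on the other strand to that of Snhg17, was not analysed here. Snhg8 is a processed transcript of 776 bases on the minus strand of chromosome 3 (ENSMUSG00000104960, mm10 chr3:123507552-123508404). Its level was 24.4, 21.7 and 25.9 FPKM in control replicates 1, 2 and 3, and 23.7, 14.996 and 20.4 FPKM in OI replicates 1, 2 and 3. OI replicate 2 was the lowest of the 6, and the groups overlapped. Snhg8 made up between 23.4% and 31.3% of the summed FPKM of the 10 genes in each library. Its mean level over the 6 libraries lay at percentile 88.9 of the 1737 genes tested, whose median mean level was 2.82 FPKM. Genes that were not analysed here are outside this percentile, so it is not a rank among all expressed genes.

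Snhg18 and Snhg12 followed at closely similar levels. Snhg18 is a long intergenic RNA on the minus strand of chromosome 15 (ENSMUSG00000096956, chr15:32240565-32244662), and its annotated start lies 148 bases from that of Sema5a on the other strand. Its level was 12.3, 10.7 and 12.4 FPKM in the control libraries and 10.6, 8.98 and 9.51 FPKM in the OI libraries. Every OI library lay below every control library, although OI replicate 1 and control replicate 2 were close. Snhg12, a long intergenic RNA on the plus strand of chromosome 4 (ENSMUSG00000086290, chr4:132308678-132311024), is the host of Snora16a. The level of Snhg12 was 11.98, 11.3 and 12.5 FPKM in the control libraries and 9.40, 9.78 and 9.34 FPKM in the OI libraries. Again every OI library lay below every control library. The level of Snhg18 was above that of Snhg12 in 3 of the 6 libraries, and their ranges overlapped, so their order is not fixed by these data. The lowest library of Snhg8 lay above the highest of either gene, and the lowest of Snhg12 lay above every library of the genes that follow.

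**Figure D1:**
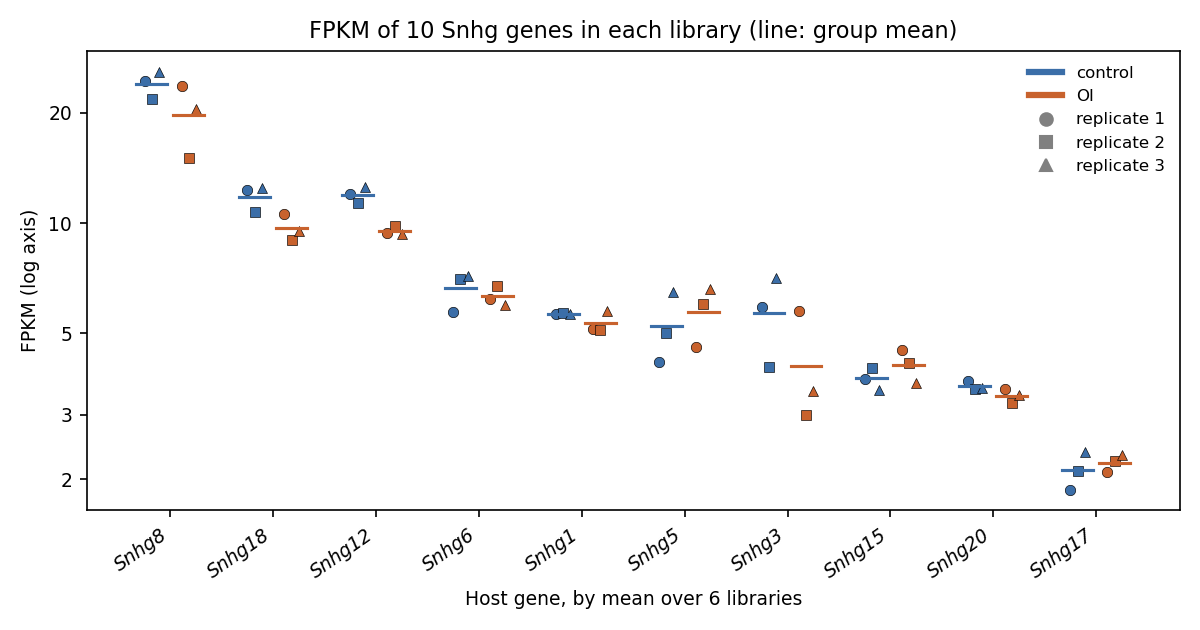
Levels of the 10 Snhg genes in FPKM (log axis), with 1 point per library (the shape gives the replicate), colours for the 3 control and 3 OI libraries, and a line at each group mean. Snhg8 lies above the rest in every library, Snhg18 and Snhg12 overlap each other, and the 7 genes from Snhg6 to Snhg17 lie between 1.87 and 7.16 FPKM.

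The next 4 hosts had means between 4 and 7 FPKM. Snhg6 (ENSMUSG00000098234, chr1:9941959-9944118, minus strand) is the host of Snord87, and its levels were 5.71, 7.03 and 7.16 FPKM in the control libraries and 6.22, 6.74 and 5.98 FPKM in the OI libraries. Control replicate 1 was the lowest of the 6. Snhg1 (ENSMUSG00000108414, chr19:8723475-8726443, plus strand) carries a series of box C/D RNAs in its introns and starts 106 bases from Slc3a2, an amino acid transporter subunit gene on the other strand. Its levels were 5.64, 5.68 and 5.64 FPKM in the control libraries, the narrowest spread of any gene of the 10 relative to its mean within 1 group, and 5.14, 5.11 and 5.74 FPKM in the OI libraries. Snhg6 lay above Snhg1 in 6 of 6 libraries, although their ranges over the libraries overlapped. Snhg5 (ENSMUSG00000097195, chr9:88521050-88522929, minus strand), the host of the Snord50 pair, had 4.19, 5.00 and 6.48 FPKM in the control libraries and 4.59, 6.01 and 6.59 FPKM in the OI libraries. Its levels were spread within each group more than they differed between the groups.

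Snhg3 (ENSMUSG00000085241, chr4:132348014-132353686, minus strand), which carries the H/ACA RNAs of the U17 family, had 5.89, 4.05 and 7.10 FPKM in the control libraries and 5.75, 2.99 and 3.47 FPKM in the OI libraries. It was low in control replicate 2 and in OI replicates 2 and 3, and the groups overlapped. The GENCODE M21 exons of Snhg3 share 71.5% of their bases with Gm17300, a gene on the opposite strand, and 13.7% with Rcc1 on the same strand. No source used here gives the strand setting of the counting, so reads of Snhg3 and Gm17300 cannot be told apart. The level of Gm17300 was 4.53, 3.65 and 4.21 FPKM in the control libraries and 3.87, 3.21 and 3.21 FPKM in the OI libraries. Its log2 fold change was -0.21, with an adjusted p of 0.372. Snhg6 has a smaller overlap of this kind, with 11.1% of its exonic bases shared with Mcmdc2 on the opposite strand.

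The last 3 of the 10 genes were below 5 FPKM in every library. Snhg15 (ENSMUSG00000085156, chr11:6525591-6528760, minus strand) had 3.76, 4.03 and 3.51 FPKM in the control libraries and 4.51, 4.14 and 3.67 FPKM in the OI libraries, which overlapped. Snhg20 (ENSMUSG00000086859, chr11:117076790-117078955, plus strand) holds a small Cajal body RNA gene and a microRNA gene. Its levels were 3.70, 3.5244 and 3.5557 FPKM in the control libraries and 3.5213, 3.22 and 3.397 FPKM in the OI libraries. Every OI library of Snhg20 lay below every control library, but OI replicate 1 and control replicate 2 were separated by only the last digits given. Snhg17 (ENSMUSG00000085385, chr2:158353700-158361580, minus strand) had 1.87, 2.1 and 2.37 FPKM in the control libraries and 2.097, 2.24 and 2.32 FPKM in the OI libraries. The ranges of neighbours overlapped at each step from Snhg6 down to Snhg20, and Snhg17 lay below its neighbour Snhg20 in all 6 libraries with no overlap.

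The boundary of the 10 genes fell between Snhg17 and Snhg4, with means over the 6 libraries of 2.17 and 1.73 FPKM. Snhg4 had 2.20, 2.47 and 1.02 FPKM in the control libraries and 2.31, 1.15 and 1.21 FPKM in the OI libraries, and Snhg17 lay above it in 3 of the 6 libraries. The order at the boundary is therefore not fixed by these data. FPKM divides by the gene length in the tables, which ranges from 581 bases for Snhg3 to 3896 bases for Snhg17, so the order also depends on the gene models.

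The remaining members had low FPKM. Snhg10 had between 0.630 and 1.99 FPKM, from 10 to 31 reads per library. Snhg14, the long host of the imprinted Snord115 and Snord116 clusters on chromosome 7 that runs antisense to Ube3a, had between 0.957 and 1.10 FPKM and was not tested. It rested on 160 to 241 reads per library, more than Snhg15 or Snhg3, over a gene length of 6861 bases. Of the 201 small RNA genes inside Snhg14 in the tables, 200 were listed at 0 in all 6 libraries, and the other was Gm22996, with 1 read in all. Snhg9 ranged from 0 to 0.358 FPKM and Snhg7os from 0.0158 to 0.118 FPKM. The row named Snhg7 is a gene of only 139 bases with a small nucleolar RNA biotype and held exactly 1 read in each library. Whether it measures the Snhg7 host transcript was not tested, and no level of Snhg7 is read from it.

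The effect of OI on the family was tested with limma on log2(FPKM + 1) over all 1737 genes with 1 FPKM or more in at least 3 libraries, with Benjamini-Hochberg adjustment. Of the 16 members, 12 passed this filter. None of the 12 had an adjusted p under 0.05, against 2.76% of all genes tested (48 genes). At an unadjusted p under 0.05 there were 2 of the 12, Snhg12 and Snhg18, against 17.8% of all genes. Leaving out 1 library moved this count between 1 and 4: it was 4 without OI replicate 1, with Snhg8 and Snhg3 added, 3 without control replicate 2, with Snhg10 added, and 1, Snhg12, without control replicate 1 or 3 or OI replicate 2 or 3. By limma-voom on the recovered reads, a separate fit of 3066 genes with 13 members, 0 members were called and 2, the same genes, had an unadjusted p under 0.05. In a bulk sample, fewer cells of a type and less RNA per cell cannot be told apart.

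Snhg12 had the smallest p of the 12 tested members. Its mean was 11.9 ± 0.613 FPKM in the control group and 9.51 ± 0.24 FPKM in the OI group (SD, n = 3 each). The log2 fold change was -0.30, with a standard error of 0.07 and a 95% confidence interval from -0.47 to -0.13, and the adjusted p was 0.104. The level in the OI libraries was 0.813 times that of the controls on the fitted scale. Snhg18 had means of 11.8 ± 0.95 FPKM and 9.70 ± 0.827 FPKM (SD, n = 3 each). Its log2 fold change was -0.26, with a standard error of 0.09 and an interval from -0.49 to -0.03, and its adjusted p was 0.240. Neither passed the threshold. When the test was run only on the 591 genes with at least 5 FPKM, Snhg12 passed it with an adjusted p of 0.0463. Its log2 fold change stayed at -0.30. The p-values were refitted and adjusted over those genes, of which 49 passed.

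**Figure D2:**
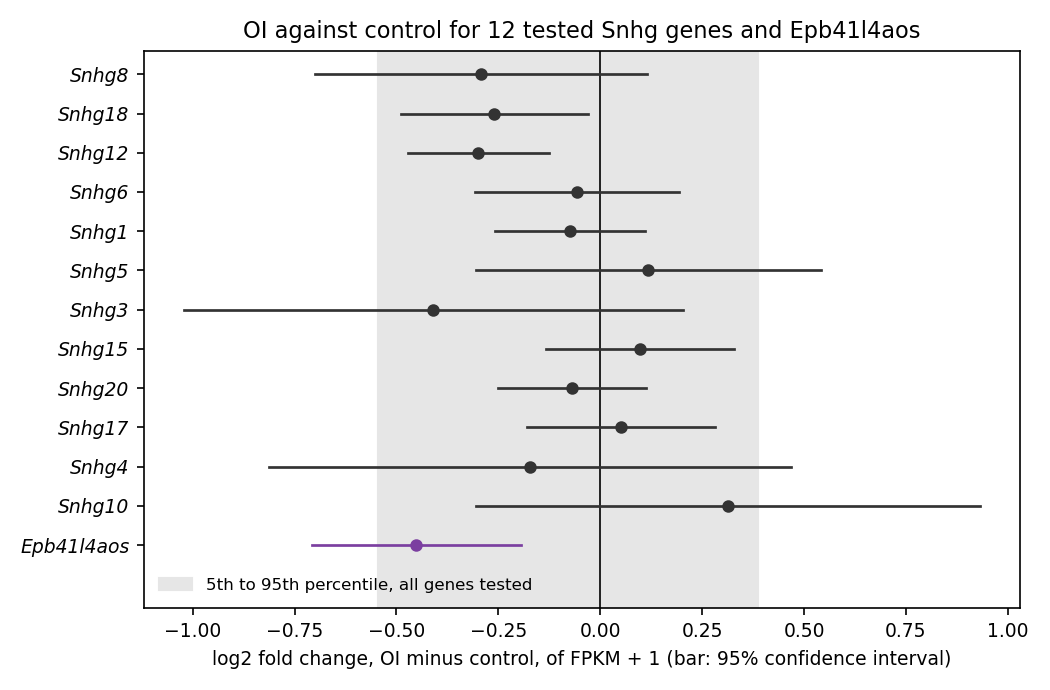
Log2 fold change of FPKM + 1, OI minus control, for the 12 tested Snhg genes and for Epb41l4aos, with 95% confidence intervals from limma; the grey band spans the 5th to 95th percentile of all 1737 genes tested, -0.55 to 0.39. The intervals of Snhg18, Snhg12 and Epb41l4aos lie below 0, and all 12 Snhg points lie inside the band.

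Snhg8 and Snhg3 had point estimates as low but with wide intervals. The mean of Snhg8 was 24.0 ± 2.097 FPKM in the control group and 19.7 ± 4.37 FPKM in the OI group (SD, n = 3 each), with a log2 fold change of -0.29 (95% interval -0.70 to 0.11, adjusted p = 0.424). The log2 fold change of Snhg8 was -0.12 without OI replicate 2 and -0.43 without OI replicate 1, with an adjusted p of 0.698 and 0.236. The mean of Snhg3 was 5.68 ± 1.53 FPKM in the control group and 4.07 ± 1.47 FPKM in the OI group, with a log2 fold change of -0.41 (interval -1.02 to 0.20, adjusted p = 0.456). Leaving out 1 library at a time or changing the settings moved the value of Snhg3 between -0.63 and -0.24.

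The other 6 of the 10 genes had log2 fold changes between -0.07 and 0.12. Snhg6 had -0.06 (95% interval -0.31 to 0.19), Snhg1 had -0.07 (-0.26 to 0.11) and Snhg20 had -0.07 (-0.25 to 0.11). Snhg5 had 0.12 (-0.31 to 0.54), Snhg15 had 0.10 (-0.13 to 0.33) and Snhg17 had 0.05 (-0.18 to 0.28). Their adjusted p-values lay between 0.660 and 0.850. Adding 1 to the FPKM before the logarithm shrinks changes at such low levels, so the fold of the FPKM itself is less tightly bounded. Outside the 10, Snhg4 had -0.17 (-0.81 to 0.47) and Snhg10 had 0.31 (-0.31 to 0.93). Both depended on single libraries: Snhg4 was at -0.023 without control replicate 2 and -0.41 without control replicate 3, and Snhg10 at 0.57 and 0.15 without the same libraries.

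Of the 10 genes, 7 had a lower and 3 a higher fitted mean in the OI group, with a median log2 fold change of -0.07. Over all genes tested, 55.4% were lower and the median was -0.02. In 3 of the 10 genes, Snhg18, Snhg12 and Snhg20, every OI library lay below every control library, against 12.5% of all genes tested. In 0 of the 10 did every OI library lie above every control library, against 11.1% of all genes. The summed FPKM of the 10 genes was 79.4, 75.2 and 86.6 in the control libraries and 75.5, 64.2 and 70.4 in the OI libraries. The groups overlapped in this sum, since OI replicate 1 lay above control replicate 2.

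**Figure D3:**
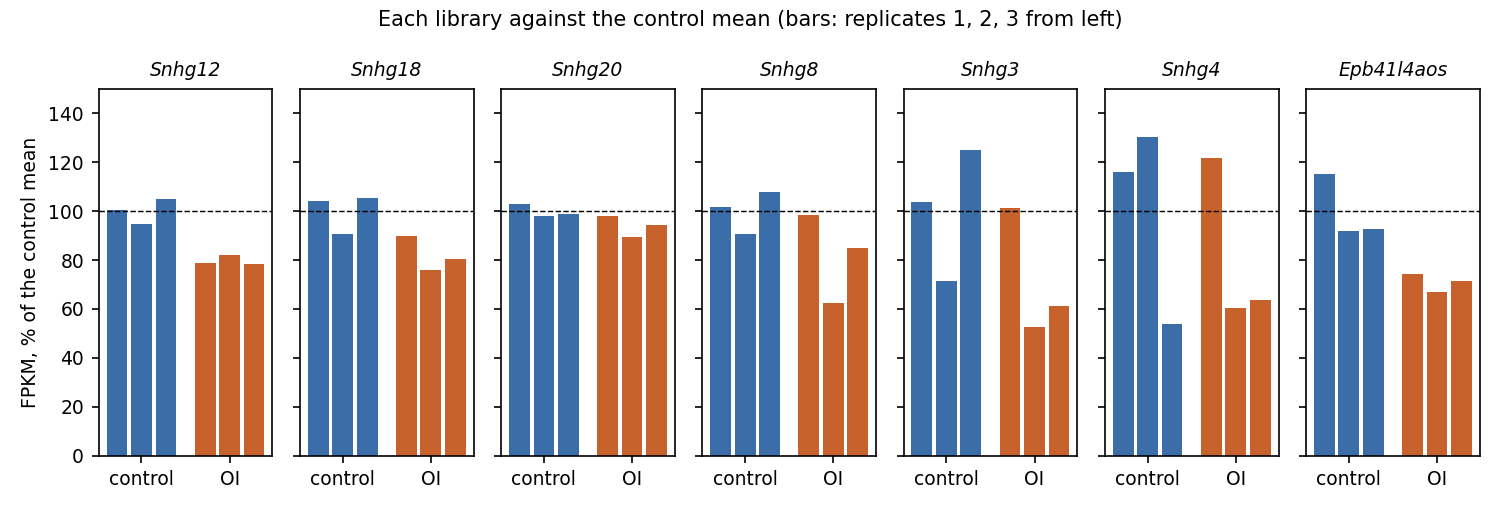
FPKM of 6 Snhg genes and of Epb41l4aos in each library, as a percentage of the gene's mean in the control group, with 1 panel per gene and 1 bar per library (control in blue, OI in orange, replicates 1, 2 and 3 from the left). The OI libraries of Snhg12 lie together below the controls, while those of Snhg8, Snhg3 and Snhg4 are spread between levels near or above the control mean and levels well below it.

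Control replicate 1 stood apart from the other 5 libraries in 2 abundant RNAs. AY036118 was at 70761 FPKM in it and between 691 and 2450 FPKM in the others, and Malat1, a nuclear long RNA, was at 1769 FPKM against 312 to 429 FPKM. Among the Snhg genes, Snhg5, Snhg6, Snhg17 and the untested Snhg14 were at their lowest in this library. Without it, Snhg5 and Snhg17 had log2 fold changes of -0.0047 and -0.0066, so 9 of the 10 genes were then lower in the OI group. Snhg12 was at -0.30 and Snhg18 at -0.23 without it. Library sizes recovered from the FPKM values were between 24441000 and 36274000 reads.

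The replicate spread differed widely between members. For each gene the coefficient of variation (CV, the SD within groups relative to the mean) was set beside the counting error from its recovered reads. Snhg12, with 224 to 351 reads per library, had a CV of 4.05% and a counting error of 5.80%. Snhg20 had 3.68% against 6.69%, Snhg15 had 8.77% against 11.2%, and Snhg1 had 4.78% against 4.74%. The replicates of these 4 genes thus differed by about the counting error or less. Snhg8 had 407 to 602 reads per library and a counting error of 4.47%, but a CV of 16.9%. Snhg5 had a CV of 20.2% against 7.07%, Snhg3 of 31.9% against 10.9% and Snhg4 of 41.3% against 11.1%. In Snhg8, Snhg5, Snhg3 and Snhg4 the spread between replicates was 2.86 to 3.77 times the counting error. Recovered reads of genes with several exons are approximate, and the counting error covers counting only.

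**Figure D4:**
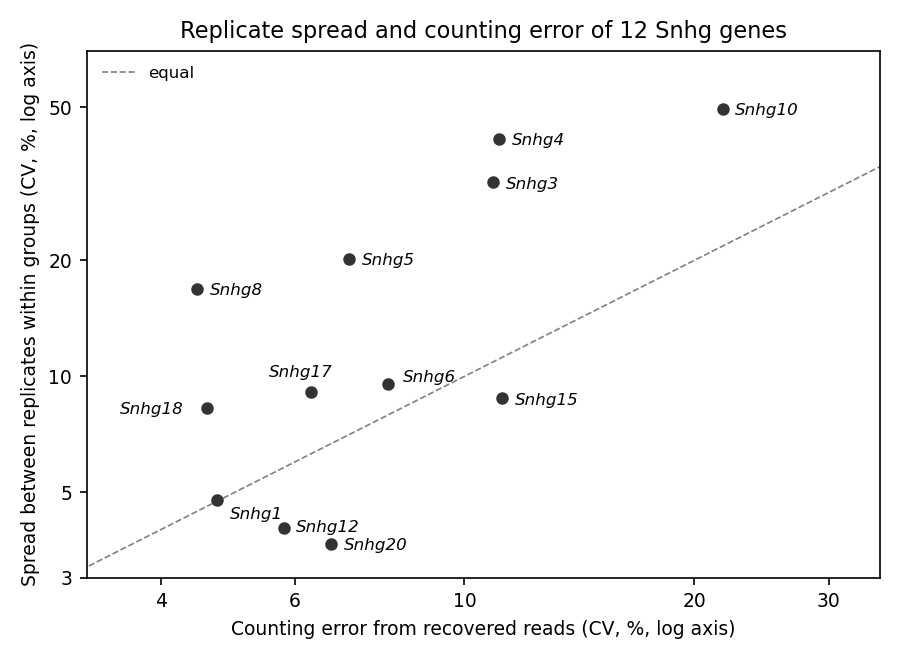
Spread between replicates within groups against the counting error from recovered reads, both as CV in percent on log axes, for the 12 tested Snhg genes; the dashed line marks equality. Snhg12, Snhg15 and Snhg20 lie below the line, Snhg1 lies on it, and Snhg8, Snhg5, Snhg3, Snhg4 and Snhg10 lie well above it.

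The small RNAs inside the 10 hosts had few reads. Of the small RNA genes in the tables, Snora24 had the most reads, with 10, 7 and 9 in the control libraries and 11, 16 and 5 in the OI libraries, or 1.498 to 3.39 FPKM. Its host Snhg8 was at 14.996 to 25.9 FPKM in the same libraries. Snora24 overlaps an exon of 1 of 3 annotated Snhg8 transcripts, so its reads may belong to either RNA. Snord123 had 3, 2 and 4 reads in the control libraries and 1, 2 and 3 in the OI libraries. Snord87 had 4, 2 and 4 reads and 3, 5 and 6 reads in the same order. Snord50b had 1 read in each control library and 6, 1 and 3 in the OI libraries. Snord50b and Snord50a overlap an exon of 1 of 6 annotated Snhg5 transcripts, and Snora16a overlaps exons of 2 of 10 Snhg12 transcripts. Gm26083 and Mir6516 overlap exons of 2 of 7 Snhg20 transcripts. Reads of these small RNA genes may likewise belong to either RNA. Snord50a, Snora16a and the small RNA genes Gm26083 and Mir6516 in Snhg20 each held exactly 1 read in all 6 libraries, a value that 209 genes shared and that is not read here as detection. These counts are too low to compare the groups. How well the libraries capture RNAs this short was not tested, so the values do not show whether a small RNA is scarcer than its host. The 8 small RNA genes that GENCODE M21 places inside Snhg1, the 2 inside Snhg3, the 1 inside Snhg15 and the 3 inside Snhg17 were not analysed here, nor were 4 of the 5 inside Snhg12.

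Other host genes of small nucleolar RNAs were taken from a list of 7, of which 3 were analysed and 1, Epb41l4aos, was tested. Epb41l4aos (ENSMUSG00000087590) had 15.5, 12.3 and 12.5 FPKM in the control libraries and 9.99, 8.98 and 9.60 FPKM in the OI libraries. Every OI library lay below every control library. Its mean was 13.4 ± 1.79 FPKM in the control group and 9.52 ± 0.512 FPKM in the OI group (SD, n = 3 each), and the log2 fold change was -0.45 (95% interval -0.71 to -0.19) with an adjusted p of 0.102. It did not pass the threshold. Without control replicate 1, its highest library, the log2 fold change was -0.35. Dancr was between 0.0705 and 0.478 FPKM, and Rian was at most 0.0073 FPKM. None of the 16 genes listed for the small nucleolar ribonucleoproteins and nonsense-mediated decay was analysed here.

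The labelled cell type could be checked on 2 of 20 muscle markers. Tnnc1, the troponin C of slow and cardiac muscle, was at 126 ± 15.1 FPKM in the control group and fell to 23.2 ± 1.39 FPKM (SD, n = 3 each) in the OI group, with a log2 fold change of -2.39 with an adjusted p of 0.000188. H19, an imprinted long RNA induced in differentiating myoblasts, was at 133 ± 2.95 FPKM and fell to 27.4 ± 4.197 FPKM, a log2 fold change of -2.25 with an adjusted p of 0.00023. Both were present in all 6 libraries. These changes moved with the treatment, and their part in the levels of the Snhg genes was not tested. The 10 markers listed for other cell types were not analysed here.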

How the data were processed

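Total RNA of C2C12 cells was extracted with RNAiso Plus and made into libraries with a TruSeq RNA kit, per the labels' protocols. The submitters' processing notes name HISAT2 2.1.0, StringTie 1.3.3b and cutadapt 2.7, with mm10 as the genome. FPKM values were deposited by the authors, 1 table per sample, with 27943 rows each, of which 1 with a broken annotation was left out. Genes with identifiers in part of the Ensembl range were not analysed here. The library size was recovered from FPKM times length in genes of 1 exon, where 100% of the values were whole within 0.01.

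Genes at 1 FPKM or more in at least 3 of 6 libraries were tested with limma 3.58.1 in R 4.3.3 (lmFit and eBayes, trend=TRUE, two-sided) on log2(FPKM + 1), a scale that understates the change of low genes. p-values were adjusted by Benjamini-Hochberg over all 1737 genes. On simulated data the fit was tested beforehand. Windows and motifs were read with Python 3.11.15. Alternatives were other pseudocounts, filters, scalings, limma-voom, a replicate block and leaving out each library. Genes named with all values were the 10 members of highest mean FPKM, the member ranked 11th and Epb41l4aos, the tested gene of the list of other hosts. Gm17300 was added after its overlap with Snhg3 was seen, and other list genes are given by mean or range. The members and lists were chosen with earlier results of these data known.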

Additional observations from a re-analysis of the deposited data

How the results depend on the processing

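The comparison was repeated under 16 alternatives. Over all genes the number past the threshold was 48, and it became 14 with no filter on low values, 17 with the replicate block and between 15 and 27 when 1 library was left out. It was 62 by limma-voom and 49 with a filter at 5 FPKM. Among the Snhg genes the number past the threshold was 0, and it became 1, Snhg12, with the filter at 5 FPKM. It was 0 under every other alternative, leaving out 1 library included. Of 187 values of 12 Snhg genes, 184 kept their direction and side of the threshold. The value of Snhg5 turned to -0.0047 and that of Snhg17 to -0.0066 without control replicate 1, and the cause was not tested; leaving out 1 library at a time gave up to 0.259 and 0.109, without control replicate 3. The adjusted p of Snhg12 ranged from 0.0463 to 0.466 and its log2 fold change from -0.33 to -0.22. For Snhg18 these were 0.155 to 0.734 and -0.32 to -0.19, and its unadjusted p was under 0.05 neither without control replicate 1 or 3 nor without OI replicate 2 or 3. Libraries of the same replicate number had correlations of 0.047, 0.138 and -0.084 in their deviations from the group means. Those of different numbers had correlations from -0.141 to 0.078. A pairing need not leave a strong correlation, so these values do not decide whether the numbers pair the libraries. With the replicate block the adjusted p was 0.269 for Snhg12 and 0.297 for Snhg18. Depth limits Snhg10 and the small RNA genes, which rest on at most 31 reads per library.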

Other observations

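The value of exactly 1 recovered read in every library, as for Snord50a and Snora16a, recurred. There were 209 genes with it, and 165 of them were small RNA genes. Where these values come from was not tested, so they are not taken as evidence of expression. Of the 3349 small RNA genes in the tables, 2244 were listed at 0 in all 6 libraries and 1105 were above 0 in at least 1.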
